A study of Rattus norvegicus with 32 samples.

Results

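Dsp, Nqo2, Bphl, Ripk1, Tubb2a, Tubb2b, Fars2, Ssr1 and Psmg4 are 9 protein-coding genes that lie near one another on rat chromosome 17. They were found by their symbols in the hippocampal RNA-seq count tables, where each occupied 1 of 32883 rows per table. The set was selected on measured values of these same libraries, in which Dsp, Nqo2 and Bphl stood out. Which contrast was used for the choice is not recorded, so the levels and differences of all 9 genes are a description with no test. Tests are given for the other genes of the same stretch of chromosome, which are not in the set. Whether the choice also drew on their values is not recorded. Serpinb6a among them overlaps Nqo2 and Ripk1, so some of its reads may be theirs.

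Dsp encodes desmoplakin, the plakin that anchors intermediate filaments to desmosomes in epithelia and heart, and in the hippocampus it is known as a transcript of dentate granule cells. Nqo2 encodes a quinone reductase that uses dihydronicotinamide riboside as its cofactor, and Bphl encodes a serine hydrolase that cleaves amino acid esters. Neighbouring genes can share regulatory DNA, chromatin domains and inherited haplotypes, so a run of genes is often read together when 1 of them differs between groups.

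Whole-transcriptome counts were available for 32 hippocampi of Sprague-Dawley rats aged 65 days, 4 per group. The groups were iron-sufficient (IS), iron-sufficient with prenatal choline (ISch), formerly iron-deficient (FID, written ID in the labels) and formerly iron-deficient with prenatal choline (FIDch, written IDch). In the study's methods, FID and FIDch dams received an iron-deficient diet from early gestation to the first postnatal week and an iron-sufficient diet from then on, and choline was added to the dam's diet in mid to late gestation, so every rat ate an iron-sufficient diet as an adult. The 16 male libraries made up sequencing batch I and the 16 female ones batch II. Sex therefore cannot be told apart from batch, and each was analyzed alone. The methods describe 1 male per litter, while the litters of the females are not given in the sources used here, and the p-values then measure only the spread between these samples.

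Total counts ranged from 3515806 to 9517503 in males and from 18439999 to 26616318 in females. Counts of rarer genes such as Dsp and Nqo2 are therefore less precise in males. All 16 male libraries held counts of the Y-linked genes Eif2s3y and Kdm5d, and 15 of the 16 female libraries held none. The library labelled female FID replicate 2 held 297 counts of Eif2s3y and 188 of Kdm5d, which goes against its label. Scaled to effective library size (CPM), these were 15.5 and 9.83. The male libraries had 64.9 to 84.4 CPM of Eif2s3y and 48.5 to 61.1 CPM of Kdm5d. Both levels thus lay below those of every male library, although the batches were normalized apart. The source of these counts was not tested. Differences described from the group of this library are given without it as well, while group means and SDs include it. The columns of male ISch replicate 1, ISch replicate 2 and FIDch replicate 2 have names of another form than the other 13 male columns, and FIDch replicate 2 has the smallest total of all libraries.

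In the RefSeq gene order of assembly GRCr8, 56 genes were annotated from Dsp to Nqo2, of which 28 could be matched to a row of the tables. These were the 9 genes and 19 others. Starting from Dsp, 3 matched genes preceded Ssr1, 4 lay between Ssr1 and Fars2, and 11 lay between Fars2 and Psmg4. Psmg4, Tubb2b, Tubb2a, Bphl and Ripk1 followed with 0 matched genes between them, and 1 gene, Serpinb6a, separated Ripk1 from Nqo2. Serpinb6a overlaps both Ripk1 and Nqo2 on the opposite strand, and the library kit did not mark strand, so reads from the overlaps cannot be told apart. A further tubulin copy, Tubb2al1, lies between Tubb2b and Tubb2a and had no row of its own, so the counts of these paralogs are uncertain where reads match more than 1 copy. The counts were made on Rnor_6.0, so GRCr8 served for gene order and promoter sequence only.

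The promoters of Dsp, Nqo2 and Bphl are shown because these are the genes whose levels set the groups apart. Each runs from 250 bases before to 50 bases after the annotated start on assembly GRCr8 and is RefSeq reference sequence, not sequence of these rats. Dsp lies at chr17:26877072-26877371, Nqo2 at chr17:31143613-31143912 and Bphl at chr17:31042526-31042825, all on the minus strand. Capitals mark the letters of 5 short motifs, which were searched on both strands.
Dsp: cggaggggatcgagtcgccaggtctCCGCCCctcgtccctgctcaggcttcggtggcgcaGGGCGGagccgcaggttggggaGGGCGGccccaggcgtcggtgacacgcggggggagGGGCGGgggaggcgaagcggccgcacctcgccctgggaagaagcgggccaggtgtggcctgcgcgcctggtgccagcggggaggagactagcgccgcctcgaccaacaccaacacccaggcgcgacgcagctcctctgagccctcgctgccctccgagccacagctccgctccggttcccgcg
Nqo2: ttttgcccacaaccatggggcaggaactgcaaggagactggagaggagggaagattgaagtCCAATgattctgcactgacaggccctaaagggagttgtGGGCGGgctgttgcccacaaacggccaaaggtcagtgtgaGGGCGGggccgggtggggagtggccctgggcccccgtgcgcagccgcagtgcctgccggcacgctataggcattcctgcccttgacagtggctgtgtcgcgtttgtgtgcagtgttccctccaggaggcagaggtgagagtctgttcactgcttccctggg
Bphl: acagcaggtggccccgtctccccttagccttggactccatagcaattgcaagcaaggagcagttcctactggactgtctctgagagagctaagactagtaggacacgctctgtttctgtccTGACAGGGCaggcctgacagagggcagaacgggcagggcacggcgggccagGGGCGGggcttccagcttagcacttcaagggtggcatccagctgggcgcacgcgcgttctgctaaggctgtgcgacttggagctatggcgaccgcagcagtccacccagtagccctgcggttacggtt

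The Dsp promoter was 75.0% G and C and held 35 CG dinucleotides, against a median of 52.3% and 7 over 27457 rat promoters of the same length. The Nqo2 promoter held 11 CG dinucleotides at 61.7% G and C, and the Bphl promoter 15 at 61.3%. GC boxes (GGGCGG) occurred in all 3 promoters, 4 in Dsp, 2 in Nqo2 and 1 in Bphl, and in 34.9% of all promoters. The CCAAT box was found in Nqo2 alone among the 3, and in 37.7% of all promoters. The letters of the antioxidant response element (TGACNNNGC), the site through which NRF2 acts on many quinone reductase genes, were found in Bphl and not in Dsp or Nqo2, and in 12.2% of all promoters. The hypoxia response core (ACGTG) was in 19.7% of all promoters and in none of the 3. The TATA box (TATAAA) was in 14.3% of all promoters and likewise in none of the 3. No motif overlapped another in these windows. A match describes the letters in this window only.

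Dsp was the gene with the widest range, and in females its level divided the libraries by choline. It was measured as CPM, the read count scaled to the library's effective size (TMM normalization). In female IS the 4 libraries had 2.22, 2.01, 1.67 and 1.60 CPM of Dsp, and in female ISch 12.7, 11.9, 11.98 and 18.2 CPM. In female FID they had 1.70, 1.83, 1.37 and 1.85 CPM, and in female FIDch 10.1, 10.9, 16.1 and 15.6 CPM. All 8 choline libraries lay above all 8 libraries without choline, while IS overlapped FID and ISch overlapped FIDch. The group means were 1.69 ± 0.223 in FID, 1.88 ± 0.293 in IS, 13.2 ± 3.14 in FIDch and 13.7 ± 3.01 in ISch (SD, n = 4). The log2 fold change of Dsp was 2.87 (SE 0.17) in ISch against IS and 2.95 (SE 0.19) in FIDch against FID, 2 comparisons that share no library. Without the library labelled female FID replicate 2 the second value was 2.99. In FID against IS it was -0.14 (SE 0.19), and -0.18 without that library.

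Nqo2 was low in the female libraries where Dsp was high. Its levels in female IS were 6.87, 9.43, 8.01 and 7.44 CPM, and in female ISch 2.79, 3.43, 2.07 and 2.12 CPM. In female FID they were 6.21, 5.80, 6.84 and 7.25 CPM, and in female FIDch 1.45, 2.105, 2.88 and 1.44 CPM. The highest choline library had 3.43 CPM and the lowest library without choline 5.80 CPM, so the groups did not overlap. The log2 fold change of Nqo2 was -1.61 (SE 0.17) in ISch against IS and -1.73 (SE 0.21) in FIDch against FID, and -1.78 without the library labelled female FID replicate 2. In FID against IS the log2 fold change was -0.28 (SE 0.12), and -0.23 without that library, with 6.53 ± 0.646 CPM in FID against 7.94 ± 1.10 in IS, and the ranges of these groups overlapped.

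Bphl, 2 places before Nqo2 among the 9 genes, was higher with choline in females. It had 6.26, 6.38, 7.44 and 5.92 CPM in female IS and 11.99, 12.5, 10.8 and 12.9 CPM in female ISch. In female FID it had 7.71, 5.33, 5.90 and 7.21 CPM, and in female FIDch 14.8, 13.4, 12.1 and 14.9 CPM. The choline libraries again all lay above those without choline, which ran from 5.33 to 7.71 CPM. The log2 fold change of Bphl was 0.89 (SE 0.10) in ISch against IS, 1.07 (SE 0.13) in FIDch against FID and 0.02 (SE 0.13) in FID against IS. Without the library labelled female FID replicate 2, the value was 0.99 in FIDch against FID and 0.10 in FID against IS. Over the 8 female libraries with and the 8 without choline, the ratio of mean CPM was 7.54 for Dsp, 1.98 for Bphl and 0.316 for Nqo2. Without the library labelled female FID replicate 2 these ratios were 7.57, 1.93 and 0.307. The other 6 genes of the set overlapped between the female libraries with and without choline. How many of all genes separate these 8 from these 8 libraries was not counted. The lack of overlap in this split, here and elsewhere, is therefore a description only.

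**Figure D1:**
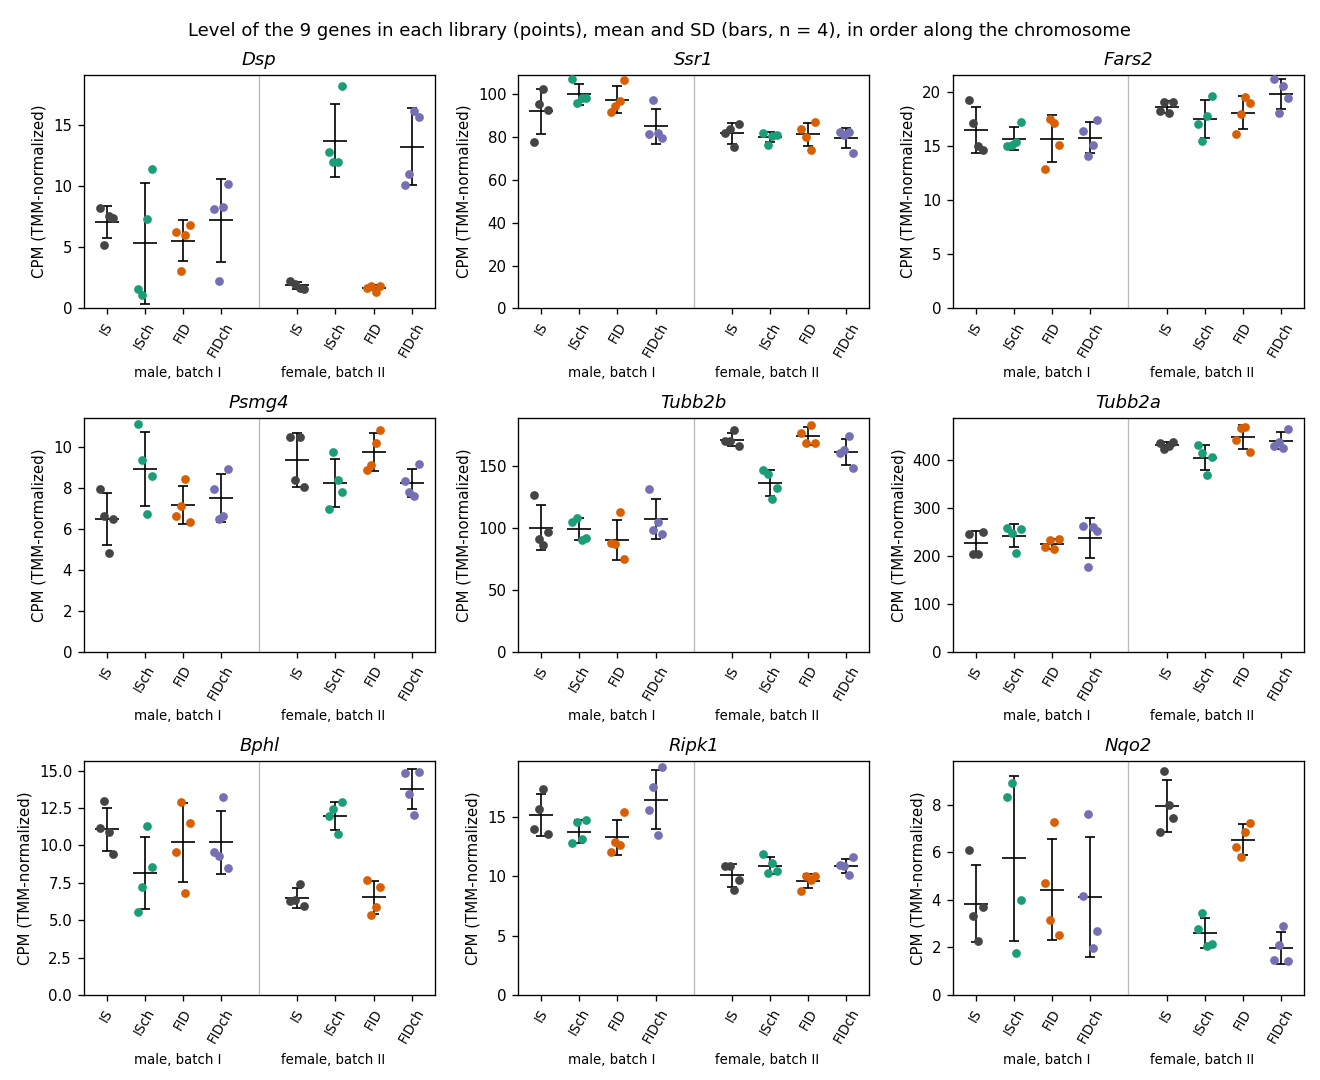
CPM of each of the 9 genes (y axis, linear, from 0) in every library (points) by diet group and sex (x axis), with the group mean and SD (black bars, n = 4), in chromosomal order from Dsp to Nqo2. In females, Dsp and Bphl are higher and Nqo2 is lower in ISch and FIDch than in IS and FID with no overlap, while in males the groups overlap for all 3.

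The tubulin genes encode beta-tubulin isotypes of neurons. Tubb2b had 170, 170, 179 and 166 CPM in female IS and 146, 143, 123 and 132 CPM in female ISch, so the ISch libraries all lay below the IS libraries. The log2 fold change of Tubb2b was -0.33 (SE 0.057) in ISch against IS and -0.11 (SE 0.055, and -0.12 without the library labelled FID replicate 2) in FIDch against FID, where 161 ± 10.8 and 174 ± 7.30 CPM overlapped. Tubb2a, its neighbour, differed less, with log2 fold changes of -0.09 (SE 0.048) and -0.03 (SE 0.050, and -0.01 without that library) in the same comparisons. Over the 8 comparisons the log2 fold change of Tubb2a ran from -0.09 to 0.10.

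Ripk1 encodes the kinase that passes tumour necrosis factor receptor signals to cell survival or necroptosis, and it lies between Bphl and Nqo2. In females its means ran from 9.66 ± 0.593 CPM in FID to 10.9 ± 0.731 in ISch, and the log2 fold change was 0.12 (SE 0.096) in ISch against IS and 0.17 (SE 0.086, and 0.19 without the library labelled FID replicate 2) in FIDch against FID. The female FIDch libraries of Ripk1, at 10.2 to 11.6 CPM, lay above those of FID, at 8.80 to 10.1 CPM, by a small margin. Psmg4, a proteasome assembly chaperone, had 8.24 ± 0.691 CPM in female FIDch and 9.77 ± 0.915 in FID, a log2 fold change of -0.25 (SE 0.10, and -0.28 without that library), and the groups overlapped. Fars2, the mitochondrial phenylalanyl-tRNA synthetase, stayed between 15.4 and 21.2 CPM in females, and its log2 fold changes over the 8 comparisons ran from -0.09 to 0.12. Ssr1, a subunit of the translocon-associated protein complex, stayed between 72.5 and 87.0 CPM in females. In the female choline comparisons the log2 fold changes of these genes were smaller in size than those of Dsp, Bphl and Nqo2.

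The 9 genes were also counted by the study's criterion (absolute log2 fold change over 0.2 and unadjusted p under 0.05, edgeR), beside the share of all genes that met it. In female ISch against IS 4 of 9 met it (Dsp, Nqo2, Bphl and Tubb2b), against 10.3% of all genes, and the same 4 had groups that did not overlap, against 10.1%. In female FIDch against FID 4 of 9 met it (Dsp, Nqo2, Bphl and Psmg4), against 12.7%, and 4 did not overlap (Dsp, Nqo2, Bphl and Ripk1), against 11.9%. In female FIDch against IS, which shares the IS libraries with the other comparisons with IS, 3 of 9 met it and 3 did not overlap (Dsp, Nqo2 and Bphl in both counts), against 8.98% and 7.8%. In female FID against IS 1 of 9 met it, Nqo2, against 6.47%, and 0 of 9 did not overlap, against 6.49%. The call of Nqo2 there was lost without IS replicate 2 (log2 fold change -0.19), IS replicate 3 (-0.28), FID replicate 1 (-0.26) or the library labelled FID replicate 2 (-0.23). The call of Psmg4 in FIDch against FID was lost without FID replicate 3 or 4 or FIDch replicate 1, 2 or 3, at log2 fold changes of -0.26 to -0.19, and Ripk1 gained one there without FIDch replicate 3 (0.21). Since these contrasts may have chosen the genes, the shares are given for orientation only.

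By absolute log2 fold change in female ISch against IS, Dsp ranked 16, Nqo2 62 and Bphl 217 of 14466 genes, and in FIDch against FID 16, 57 and 182 of 14680.

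In males, the diet groups overlapped for all 9 genes in each of the 4 comparisons. Male Dsp had 8.20, 5.18, 7.57 and 7.39 CPM in IS, 1.57, 1.07, 7.26 and 11.4 in ISch, 6.23, 3.04, 5.998 and 6.84 in FID, and 8.08, 2.26, 8.29 and 10.1 in FIDch. Male Nqo2 had 6.08, 3.31, 2.27 and 3.69 CPM in IS, 8.34, 8.91, 1.75 and 3.97 in ISch, 4.71, 3.15, 7.29 and 2.52 in FID, and 4.17, 7.63, 1.99 and 2.68 in FIDch. High and low libraries occurred in the same group, most of all in ISch, where the SD of Dsp was 4.93 around a mean of 5.32 CPM. Of the 9 genes, 0 met the criterion in male FID against IS (4.62% of all genes) and 0 in FIDch against IS (6.12%), 2 did in ISch against IS (8.06%) and 2 in FIDch against FID (13.0%). The number whose groups did not overlap was 0 in each, against 3.52%, 5.32%, 6.15% and 10.8% in the same order.

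In male ISch against IS, Bphl was lower at 8.16 ± 2.41 against 11.1 ± 1.44 CPM, a log2 fold change of -0.45 (SE 0.19), and Psmg4 was higher at 8.96 ± 1.81 against 6.48 ± 1.27 CPM, a log2 fold change of 0.46 (SE 0.18). In the same comparison in females Bphl was at 0.89 and Psmg4 at -0.19, the latter short of the criterion, and the difference between the sexes was not tested. In FIDch against FID, Ripk1 was higher at 16.5 ± 2.46 against 13.3 ± 1.51 CPM (log2 fold change 0.28, SE 0.13) and Ssr1 lower at 85.1 ± 8.11 against 97.5 ± 6.43 CPM (-0.21, SE 0.074). None of these calls held under every left-out library. Bphl missed the criterion without IS replicate 1, 2 or 3 or ISch replicate 1 or 2, at log2 fold changes of -0.45 to -0.31, and Psmg4 without IS replicate 2, 3 or 4 or ISch replicate 1 or 2, at 0.34 to 0.46. Ripk1 missed it without FID replicate 1, 2 or 3 or FIDch replicate 1, 2 or 4, at 0.20 to 0.31, and Ssr1 without FID replicate 4 or FIDch replicate 1, 3 or 4, at -0.19 to -0.17. In ISch against IS, Nqo2 gained a call without ISch replicate 3 (0.85) and Dsp without ISch replicate 4 (-1.12). In FIDch against FID, Dsp gained one without FIDch replicate 2 (0.67) and Tubb2b without FID replicate 3 (0.37) or FIDch replicate 4 (0.31). In FIDch against IS, Tubb2b gained one without IS replicate 1 (0.24).

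The 3 male libraries whose columns carry names of another form had the lowest Dsp and the highest Nqo2 of all male libraries. Their Dsp levels were 1.57, 1.07 and 2.26 CPM against 3.05 to 11.4 in the other 13, and their Nqo2 levels 8.34, 8.91 and 7.63 CPM against 1.75 to 7.29. Bphl, at 5.56, 7.25 and 9.33 CPM, overlapped the 6.82 to 13.3 CPM of the other 13. All 3 are choline libraries, so among males the choline libraries hold both the highest and the lowest Dsp. Leaving out the libraries with the lowest Dsp and highest Nqo2 could only raise Dsp and lower Nqo2 in the choline groups. The direction of the changes below was therefore set by the choice, and in ISch only replicates 3 and 4 remained. Without them, the log2 fold change of Nqo2 in ISch against IS was -0.42 in place of 0.55 (SE 0.42). That of Dsp was 0.40 in place of -0.39 (SE 0.51), so both changed sign. That of Bphl there was -0.18, which kept its sign, and that of Psmg4 0.23. In FIDch against FID without the 1 such library, Dsp was at 0.67 in place of 0.48 (SE 0.31), Nqo2 at -0.59 in place of -0.26 (SE 0.39) and Bphl at 0.03. Of these values, Dsp in FIDch against FID met the criterion. Of the 12 marker and 7 pathway lists, those whose sums lay outside the range of the other 13 in all 3 libraries were picked out. Desmosome and plakin genes had 1940 to 2010 CPM in these 3 libraries and 1000 to 1830 in the other 13. Interneuron markers had 736 to 753 CPM against 769 to 906. Their part in the Dsp and Nqo2 levels was not tested.

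The log2 ratio of Dsp to Nqo2 CPM within a library gave the same picture in 1 value. It ran from -2.32 to -1.63 in the 8 female libraries without choline and from 1.80 to 3.44 in the 8 with choline. In the 3 male libraries named above it was -2.41, -3.06 and -1.75, and in the other 13 males it ran from -0.28 to 2.06. No library of either batch lay between -1.63 and -0.28, although levels of different batches were normalized apart.

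**Figure D2:**
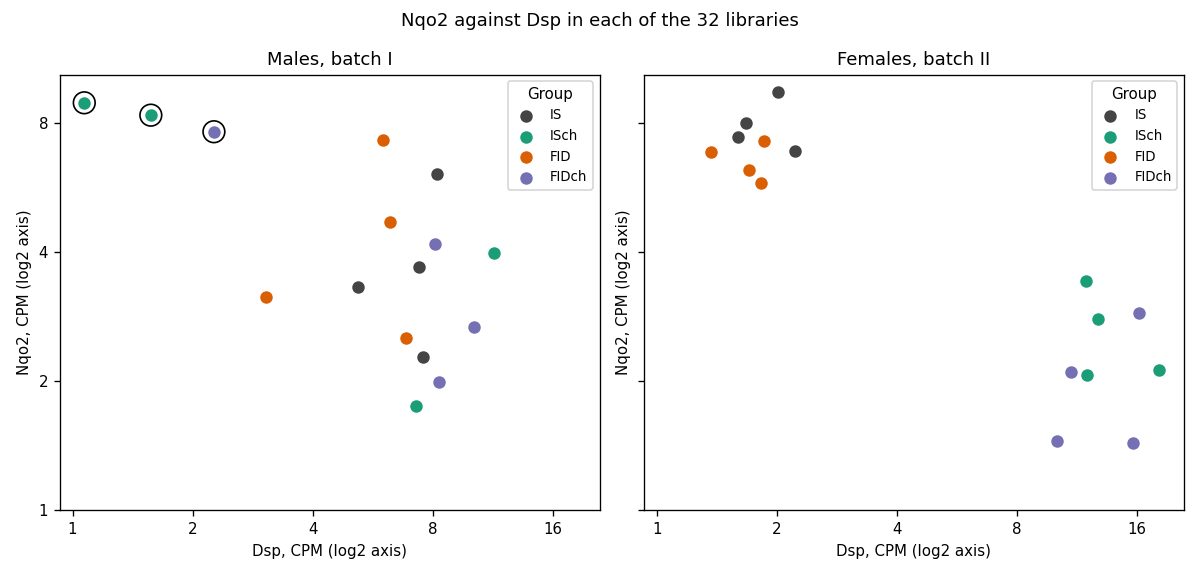
Nqo2 CPM (y axis, log2 scale) against Dsp CPM (x axis, log2 scale) in each library, males on the left and females on the right, coloured by diet group; rings mark the 3 male libraries with column names of another form. The female libraries form a low-Dsp, high-Nqo2 cluster of 8 without choline and a high-Dsp, low-Nqo2 cluster of 8 with choline, and the ringed male libraries have 1.07 to 2.26 CPM of Dsp.

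Whether the rest of the stretch moved with these genes was tested on the 19 other matched genes, 14 or 15 of which were expressed enough to be tested in each comparison. Serpinb6a, a serine protease inhibitor gene that overlaps Nqo2, was the gene of these that differed most clearly with choline in females. It had 16.1 ± 2.22 CPM in ISch against 22.7 ± 1.10 in IS, a log2 fold change of -0.50 (SE 0.096, edgeR adjusted p = 0.024, n = 4), and 17.5 ± 0.603 in FIDch against 24.5 ± 2.11 in FID, a log2 fold change of -0.49 (SE 0.074, edgeR adjusted p = 0.0107). The choline libraries had 14.1 to 18.9 CPM of Serpinb6a and those without 21.6 to 27, with no overlap. How many of these reads came from the overlap with Nqo2 or Ripk1 was not tested. The adjusted p of Serpinb6a in the female F test was 0.001. Over the alternatives its edgeR or DESeq2 adjusted p ran from 6.77e-06 to 0.0422 in FIDch against FID, with 0.0112 without the library labelled FID replicate 2. In ISch against IS it ran from 0.000222 to 0.098, and it was not under 0.05 with any 1 library but ISch replicate 1 left out, which gave edgeR adjusted p values up to 0.0765 while the criterion was still met.

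Nrn1, which encodes neuritin, a small protein that promotes neurite growth, was higher with choline in females, in the middle of the stretch. It had 186 ± 10.5 CPM in FIDch against 158 ± 7.64 in FID, a log2 fold change of 0.23 (SE 0.053, edgeR adjusted p = 0.0462). This adjusted p ran from 0.0047 to 0.147 over the alternatives, was 0.147 without the library labelled FID replicate 2, and was over 0.05 with any 1 of the libraries but FIDch replicate 4 left out. In ISch against IS it had 175 ± 2.69 against 158 ± 3.42 CPM, a log2 fold change of 0.14 (SE 0.036) under the criterion, with an edgeR adjusted p of 0.0793, and its F test gave an adjusted p of 0.00719. The 8 female choline libraries had 172 to 196 CPM of Nrn1 and the 8 without 150 to 168, with no overlap. In males the difference of Nrn1 in ISch against IS had the other sign, with 132 ± 7.41 against 155 ± 4.53 CPM, a log2 fold change of -0.23 (SE 0.058, edgeR adjusted p = 0.245). Without the 3 libraries named above this value was -0.18 and missed the criterion, and the difference between the sexes was not tested.

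In female ISch against IS 1 of 15 tested genes of the stretch met the criterion, Serpinb6a, beside 10.3% of all genes. In FIDch against FID 4 of 15 did, beside 12.7%, the others being F13a1 (log2 fold change 1.10), Pxdc1 (0.32) and Nrn1. F13a1 encodes the coagulation factor XIII A chain, and its edgeR adjusted p was 0.143, while that of Pxdc1 was 0.074. Without the library labelled FID replicate 2, all 4 still met the criterion, at log2 fold changes of 1.29, 0.35, 0.23 and -0.54 for F13a1, Pxdc1, Nrn1 and Serpinb6a. In female FIDch against IS 4 of 15 met it (Rreb1, Ppp1r3g, Serpinb6a and Nrn1), beside 8.98% of all genes. The edgeR adjusted p there was 0.0286 for Serpinb6a (not under 0.05 without 1 library in 7 of 8 cases, up to 0.118) and over 0.05 for the others. Ppp1r3g missed the criterion without IS replicate 1 (-0.32) or FIDch replicate 2 (-0.30). In female FID against IS 2 of 15 met it, beside 6.47% of all genes. They were Rreb1 (-0.55, SE 0.11, edgeR adjusted p = 0.0715) and Ppp1r3g (-0.37, edgeR adjusted p = 0.307), the latter not without IS replicate 1. Without the library labelled FID replicate 2, Rreb1 was at -0.48 and Ppp1r3g at -0.34, and F13a1 met it too (-0.79). Rreb1 is a zinc finger repressor and Ppp1r3g a glycogen-targeting phosphatase subunit. In males 0 of 14 met it in FID against IS, FIDch against IS and FIDch against FID, beside 4.62%, 6.12% and 13.0% of all genes. In male ISch against IS 2 of 15 did, beside 8.06%, F13a1 (-1.11, SE 0.32, edgeR adjusted p = 0.333) and Nrn1. An F test over the 4 groups at an adjusted p under 0.05 called 2 of the 15 genes in females (Serpinb6a and Nrn1), against 5.34% of all genes, also without the library labelled FID replicate 2. In males it called 0 of 15, against 0.748% of all genes. At an unadjusted p under 0.05 (edgeR F test) there were 2 of the 15 in males, beside 2042 of all 14314 genes.

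Genes on either side of the stretch were counted for comparison, and no test was made on the counts. Of the 20 matched genes before Dsp and the 20 after Nqo2, 0 of 16 and 1 of 14 tested genes met the criterion in female ISch against IS. In FIDch against FID 4 of 17 and 3 of 14 did. The shares of all genes were 10.3% and 12.7% in these comparisons. The median log2 fold change of the tested genes from Dsp to Nqo2 without the 9 was 0.13 in female FIDch against FID and -0.00 in ISch against IS.

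**Figure D3:**
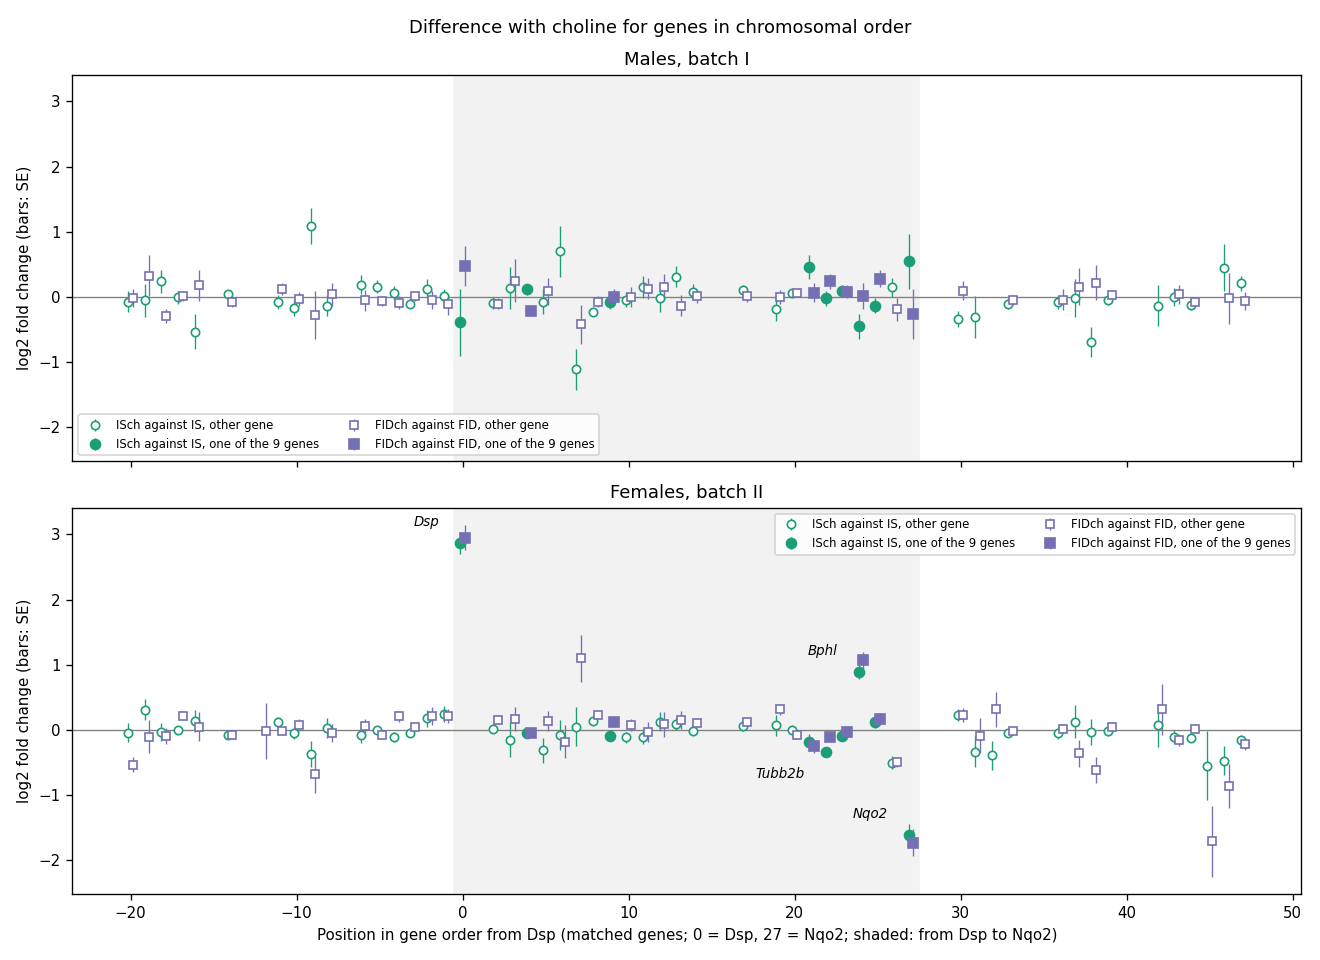
Log2 fold change with its SE (y axis) of every tested gene in order along the chromosome (x axis, number of matched genes from Dsp at 0, with Nqo2 at 27, shaded), for ISch against IS (circles) and FIDch against FID (squares), males above and females below; filled symbols are the 9 genes. In females, Dsp, Bphl and Nqo2 stand at 2.87, 0.89 and -1.61 in ISch against IS, and Tubb2b is at -0.33 and Serpinb6a, the last gene before Nqo2, at -0.50.

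Variation between rats of 1 diet group was examined as the deviation of log2 CPM from the group mean, over 16 libraries per sex. Among males, Nqo2 deviated against Bphl (r = -0.73), which ranked 135 of 14313 genes by absolute r with Nqo2, and against Dsp (r = -0.62). Without the 3 libraries with other names, r of Nqo2 with Bphl was -0.68 and with Dsp 0.33, so the latter rested on them. The r of male Dsp with Bphl was 0.29, and it was -0.59 without these libraries, so its sign depended on them too. Male Nqo2 deviated with Tubb2b (r = 0.62) and with Psmg4 (r = 0.62), and these values were 0.83 and 0.82 without the 3 libraries. In females Nqo2 and Tubb2b also deviated together (r = 0.71, and 0.58 without the 2 farthest libraries), ranking 76 of 14974. Within female groups Nqo2 showed no such relation with Dsp (r = 0.01) or Bphl (r = -0.16), nor Dsp with Bphl (r = 0.03), although the 3 separated the same libraries between groups. Pairs of the 9 genes share libraries and depth, and their correlations carry no test.

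**Figure D4:**
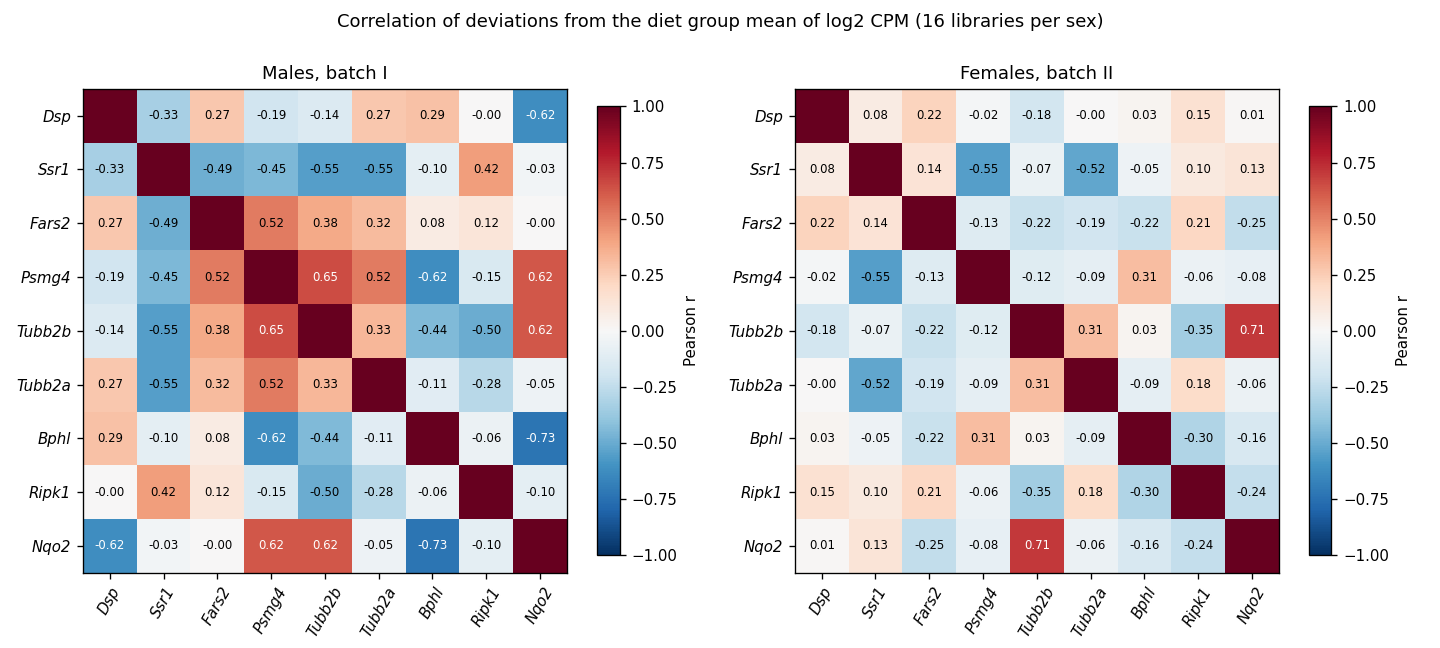
Pearson r (colour and number) between deviations of log2 CPM from the diet group mean for each pair of the 9 genes, over 16 male libraries (left) and 16 female libraries (right), in chromosomal order. Nqo2 pairs with Tubb2b at 0.62 in males and 0.71 in females, and with Bphl at -0.73 in males and -0.16 in females.

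Each of the 15 other genes of the stretch was set against Dsp, Nqo2 and Bphl, 45 pairs per sex. In males 1 pair passed, Serpinb6a with Nqo2, at r = 0.76 (permutation test within diet groups, p = 0.0003, adjusted p = 0.0135) and rho = 0.81 (permutation p = 0.00024, adjusted p = 0.0108). It was 0.75 without the 2 farthest libraries. Leaving out ISch replicate 1 gave r = 0.75 with an adjusted permutation p of 0.0598, and leaving out ISch replicate 3 gave 0.70 with 0.0949. With the 3 libraries of other names left out, r was 0.80 with an adjusted permutation p of 0.208. The 2 genes overlap on opposite strands, and the share of reads they have in common was not tested. In females 0 pairs passed by this permutation test, and 1 had an unadjusted p under 0.05, Dsp with Pxdc1 (r = -0.65, permutation test, adjusted p = 0.326).

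Genome-wide, the genes whose deviations were most like those of Dsp in males were Mx2 (r = 0.94), Tmpo (0.91) and Cald1 (0.88), and in females Rasa2 (0.86), Lrrc8c (0.83) and Cmtm6 (0.80). For Nqo2 they were Mei1 (0.87), Cela2a (0.86) and Slc44a5 (0.85) in males, and Hk2 (0.87), Cd4 (0.85) and Adgrf2 (0.83) in females. For Bphl they were Nars (0.90), Trmt10c (0.89) and Fam49b (0.86) in males, and Cox7c (0.85), Fabp3 (0.84) and Ephx4 (0.84) in females. These are the highest of 14313 and 14974 values over 16 libraries, and no gene was named for both sexes.

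Partners of the 9 genes in their pathways were counted by the same criterion in the female choline comparisons. Of 80 tested genes on 7 lists, 4 were higher and 1 lower by the criterion in female ISch against IS (6.25%, beside 10.3% of all genes), and of 81, 3 were higher and 5 lower in FIDch against FID (9.88%, beside 12.7%). Of 18 listed desmosome and plakin genes, which include partners of Dsp and other plakins, 9 were tested in each comparison. Among those not tested was Dsg4, which had no counts in females. The tested genes had 0 of 9 in ISch against IS. In FIDch against FID 1 was higher (Perp, log2 fold change 0.22) and 1 lower (Dst, -0.21). Quinone and NRF2 response genes, to which Nqo2 relates, had 0 of 10 in ISch against IS and 2 lower in FIDch against FID (Slc7a11, -0.22, and Txnrd1, -0.21). Necroptosis and TNF receptor genes, the partners of Ripk1, had 0 of 16 and 1 lower (Birc2, -0.24). Of the other tubulin genes 1 of 13 was lower in ISch against IS (Tubb4a, -0.20) and 0 of 14 in FIDch against FID. Mitochondrial aminoacyl-tRNA synthetases had 0 of 15 and 1 higher (Wars2, 0.31), and translocon and TRAP complex genes 2 higher of 10 (Ssr4, 0.21, and Sec61b, 0.20) and 0. Proteasome assembly chaperones had 2 higher of 7 (Psmd10, 0.37, and Psmd9, 0.29) in ISch against IS, and 1 higher (Psmd5, 0.23) and 1 lower (Pomp, -1.0) in FIDch against FID. The median log2 fold change of these lists in ISch against IS ran from -0.11 to 0.09.

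Markers of dentate granule cells, in which Dsp is known to be expressed, were higher in female ISch than in IS, and mostly did not pass in FIDch against FID. Of the 7 tested of 9 listed markers, 6 were higher in ISch against IS, with a median log2 fold change of 0.36 against -0.004 for all genes, and 4 of them had an adjusted p under 0.05. The share of all genes that met the criterion in either direction was 10.3%. The marker and pathway lists were chosen with earlier results of these data known, and Prox1 below was picked out by no rule. Their counts and p-values are therefore a description only. In FIDch against FID 1 of 7 was higher, Prox1, beside 12.7% of all genes, with a median of 0.19 over the list, and C1ql3 was at -0.01 and Glis3 at -0.00. Prox1, the transcription factor of granule cell identity, had 163 ± 16.1 CPM in ISch against 124 ± 9.41 in IS, a log2 fold change of 0.39 (SE 0.074, edgeR adjusted p = 0.0227), and 153 ± 9.80 in FIDch against 117 ± 2.32 in FID, again 0.39 (SE 0.052, edgeR adjusted p = 0.00559). The former adjusted p was not under 0.05 without IS replicate 1, 2 or 3, reaching 0.0679, and the latter reached 0.029 at most with 1 library left out. The summed level of the markers was 486 to 553 CPM in ISch, 454 to 549 in FIDch, 364 to 427 in IS and 392 to 440 in FID. In the 3 male libraries with low Dsp it was 431, 434 and 415 CPM, within the 400 to 482 of the other 13. The part of these markers in the Dsp levels was not tested, and in whole tissue fewer cells of a type and less RNA per cell cannot be told apart.

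The other 11 marker lists were counted in the same 2 comparisons, ISch against IS and then FIDch against FID. Of all genes, 10.3% and then 12.7% met the criterion in either direction. Astrocyte markers had 1 of 7 higher in ISch against IS and 2 in FIDch against FID, microglia 2 of 7 and 1 lower, and endothelial cells 0 of 5 and 1 lower. CA2 and CA3 pyramidal cells had 1 of 6 lower and 1 higher, interneurons 0 of 6 and 1 lower, and CA1 pyramidal cells and oligodendrocytes 0 in both comparisons. Choroid plexus markers had 0 of 3 and 1 lower, ependyma 1 of 5 lower and 0, blood 0 of 2 in both, and leptomeninges and fibroblasts 2 of 6 higher and 1 lower, then 1 lower. That gene was Lum in both comparisons, singled out after its values were seen, with log2 fold changes of -1.06 (SE 0.26, edgeR adjusted p = 0.0601) and -1.50 (SE 0.23, edgeR adjusted p = 0.0107). Summed over each list, neuronal and glial markers were present in every library, as the hippocampus label requires. Single markers were not, as Npy had no counts in male ISch and FIDch, and Tdo2 none in male ISch, FID and FIDch. The choroid plexus sum ranged from 3.24 to 410.0 CPM in males, where the highest library stood apart.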

How the data were processed

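Hippocampal RNA-seq of 32 rats was used. According to the methods and the submitters' processing notes, the authors trimmed the reads (Trimmomatic), aligned them (HISAT2, Rnor_6.0) and deposited raw counts per gene (featureCounts) in 1 table per sex. From these counts, log2 fold changes were fitted for each pair of groups with edgeR 4.0.16 (filterByExpr, TMM, quasi-likelihood test, R 4.3.3), adjusted over all genes by Benjamini-Hochberg. The criterion was the study's. An F test covered the 4 groups of a sex. Correlations used log2 CPM (prior count 2) and 100000 permutations within diet groups. The scripts were tested on simulated data. The members and lists were chosen with earlier results of these data known. Marker lists (12) and pathway lists (7) are those named above. Genes were named by rule: the 9 genes, the 3 most alike to Dsp, Nqo2 and Bphl per sex, and up to 2 per pathway list. Of the other genes of the stretch, all that met the criterion were named. Single genes of the marker lists, such as Prox1 and Lum, were named outside this rule. No label pairs same-numbered samples, and the main fits did not treat them as pairs. Their correlations of -0.15 to 0.22 cannot exclude a pairing. Between replicates, chi-square per gene was 2.02 to 25.2, above sampling noise in each of 48 pairs. Alternatives were DESeq2 1.42.0, its size factors, no filter, a 4-group fit, a replicate block and single left-out libraries. Leaving out the 3 libraries with other column names was chosen after seeing the data.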

Additional observations from a re-analysis of the deposited data

Results flagged for a closer look

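Of 72 groups of 4 libraries, 4 held a library whose gap to the others exceeded what is usual at the 95% level, where chance gives about 1 in 20. Dsp was 18.2 CPM in female ISch replicate 4, above 11.9 to 12.7 in the others. Ssr1 was 72.5 CPM in female FIDch replicate 4, below 81.0 to 82.5, and 97.2 CPM in male FIDch replicate 2, above 79.8 to 82.1. Tubb2a was 176 CPM in male FIDch replicate 2, the library with the smallest total, below 252 to 261 in the others.

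The sign of the difference differed between males and females for Ripk1 in ISch against IS, at log2 fold changes of -0.13 (SE 0.11) and 0.12 (SE 0.096). It also did for Psmg4 in FIDch against IS, at 0.21 and -0.18. These were not the only ones or the largest. In ISch against IS, Dsp was at -0.39 and 2.87, Nqo2 at 0.55 and -1.61 and Bphl at -0.45 and 0.89. These differences between the sexes were not tested, and sex and batch cannot be told apart.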

How the results depend on the processing

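Of 963 log2 fold changes of the 9 genes recomputed under the alternatives, 962 moved by less than the spread between replicates and 0 reversed while called. The exception was Nqo2 in male ISch against IS, -0.42 without the 3 male libraries with other column names, where Dsp, not called, also changed sign (0.40). The 360 recomputed levels all moved by less than that spread. Of 185 recomputed counts, 173 stayed within 1.5 times. The count of other genes of the stretch at the criterion was 1 in place of 0 in male FID against IS with the 4 groups in one fit, and 1 in place of 2 in male ISch against IS without the 3 libraries. Correlated pairs were 2 (males, in place of 1) and 6 (females, in place of 0) with no group mean removed, and 0 in males without the 3 libraries.

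With 1 library left out, the counts ran from 0 to 1 in male FID against IS, FIDch against IS and FIDch against FID, and from 2 to 3 in ISch against IS. In females they ran from 2 to 3 in FID against IS, 3 to 5 in FIDch against IS, 1 to 2 in ISch against IS (2 without ISch replicate 3, when Rreb1 was added), and stayed at 4 in FIDch against FID. The F tests stayed at 0 in males and 2 in females. Correlated pairs ran from 0 to 2 in males and stayed at 0 in females. With a replicate block the counts were 0, 0, 3 and 0 in males and 2, 4, 1 and 4 in females, in the order FID, FIDch and ISch against IS and FIDch against FID, and the pairing moved none by over 1.5 times. With the block Nqo2 missed the criterion in female FID against IS (-0.28), and with the 4 groups in one fit Nqo2 there and Psmg4 in FIDch against FID (-0.25) missed it. In males, Dsp met it in FID against IS with the block (-0.38). In male FIDch against FID, Tubb2b met it with no filter (0.24), DESeq2 (0.25) and the block (0.24), and Ripk1 missed it with DESeq2 (0.29). Male depth limits Dsp and Nqo2, which had 8 to 109 counts per male library.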
